A study of Schizosaccharomyces pombe with 2 samples.

Results

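The genes described here encode the RNA interference (RNAi) machinery of Schizosaccharomyces pombe. They are the 7 genes that the deposited annotation names ago1, chp1, tas3, rdp1, hrr1, cid12, and dcr1, of 5121 protein-coding genes on chromosomes 1 to 3. The series holds 2 replicate ChIP-seq libraries made with an antibody against H3K9me2, histone H3 dimethylated at lysine 9, from swi6Δ cells. These cells lack Swi6, a heterochromatin protein of the HP1 family, and were grown in YES, a rich medium. The study asked how H3K9 methylation is maintained and spreads without Swi6. The file used here is a GeneDB annotation of the genome without read, coverage, or enrichment values, so no H3K9me2 level of these genes was computed and no samples were compared. The depth of the libraries is unknown here. All values below are positions, lengths, and counts of annotated features. They carry no replicate error, and with 7 genes a share of the members is a description only.

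In fission yeast, transcripts of pericentromeric repeats are turned into double-stranded RNA, which Dicer cuts into short interfering RNAs (siRNAs). An Argonaute protein loaded with such an siRNA guides the RNA-induced transcriptional silencing complex (RITS) to nascent repeat transcripts, where it promotes H3K9 methylation by Clr4. The members fall into 3 genes for RITS subunits (ago1+, chp1+, tas3+), 3 genes for subunits of the RNA-directed RNA polymerase complex (RDRC; rdp1+, hrr1+, cid12+), which makes the double-stranded RNA, and dcr1+, which encodes Dicer. The study asked of RITS whether self-association of its subunit Tas3 takes part in keeping the mark when Swi6 is missing.

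The positions given here are those of the deposited annotation, counted from 1. The build is not named in that file. Its chromosome lengths equal those of the RefSeq reference sequence ASM294v3, on which 5116 of the 5121 coding genes had a whole reading frame, and DNA below was read from this reference. The annotated untranslated regions (UTRs) of the members rest on transcript evidence of different kinds: 10 of their 15 UTR lines cite the same publication, and those of ago1+ are marked in the file as set by hand with ends that may be inexact.

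ago1+ (SPCC736.11) encodes Argonaute, the RITS subunit that binds siRNAs and cuts RNA. Its mRNA spans 334103 to 337070 on the plus strand of chromosome 3. The coding sequence of 2505 bp lies in 2 exons separated by an intron of 371 bp and encodes 834 residues. Its UTRs were among the shorter ones of the genome, with 34 bp at the 5′ end (4.54% of 4693 annotated 5′ UTRs were shorter) and 58 bp at the 3′ end (4.21% of 4748 were shorter). The slicer aspartate D580 of the PIWI domain is codon GAT at 336245 to 336247. The coding strand around it, from 336233 to 336259, is shown because this residue gives Argonaute its cutting activity, with the codon in capitals.
ago1+ D580: attcttggtggaGATgtttatcaccct

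chp1+ (SPAC18G6.02c) encodes the RITS subunit that binds methylated H3K9 through a chromodomain. Its mRNA spans 2210810 to 2214664 on the minus strand of chromosome 1. The coding sequence of 2883 bp is a single exon from 2210977 to 2213859 and encodes 960 residues. Here the long UTR was the 5′ one, with 805 bp (rank 341 from the longest, 92.7% of 5′ UTRs were shorter), while the 3′ UTR had 167 bp. RefSeq starts the transcript 319 bp further downstream and gives a 5′ UTR of 486 bp, so the length of this leader depends on the annotation. A valine tRNA gene lay 68 bp upstream of the 5′ end in the deposited annotation, and further from the RefSeq one. The only other member with a tRNA gene within 3 kb was ago1+, at 2802 bp. The share of all coding genes with a tRNA gene that near was not computed.

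tas3+ (SPBC83.03c) encodes the subunit that joins Chp1 to Ago1. Its mRNA spans 1514006 to 1516211 on the minus strand of chromosome 2, with a single coding exon of 1650 bp from 1514479 to 1516128 for 549 residues, a 5′ UTR of 83 bp, and a 3′ UTR of 473 bp. Residue L479, which the study changed to glutamate (L479E) to abolish self-association, lies in the C-terminal motif, 70 residues from the end of the protein. Its codon TTG occupies 1514692 to 1514694, and at least 2 of its bases have to change to give glutamate. The coding strand from 1514706 to 1514680 is shown because this codon is changed in the study's mutant. The strain list of the study gives that mutant allele with a TAP tag and a natMX marker as well.
tas3+ L479: caagtcttacagTTGgtattttccgct

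rdp1+ (SPAC6F12.09) encodes the RNA-directed RNA polymerase. Its mRNA spans 1324591 to 1329061 on the plus strand of chromosome 1, and a single coding exon of 3648 bp from 1325253 to 1328900 encodes 1215 residues. The 5′ UTR of 582 bp was annotated in 2 pieces with an intron of 80 bp between them, and the 3′ UTR had 161 bp. In RefSeq the 5′ UTR of rdp1+ had 232 bp. The active-site aspartate D903, codon GAT at 1327959 to 1327961, lies at 74.3% of the protein length. The coding strand from 1327947 to 1327973 shows the run of aspartate codons around the metal-binding site.
rdp1+ D903: gatctggatgggGATgagtacacagtt

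hrr1+ (SPCC1739.03) encodes a helicase of RDRC. Its mRNA spans 2029261 to 2034205 on the plus strand of chromosome 3. The coding sequence of 3000 bp lies in 4 exons between 2029655 and 2032785 and encodes 999 residues. The 3 introns are short, with 41, 42, and 48 bp, and curators marked the gene structure in the file as updated. The 5′ UTR had 394 bp (195 bp in RefSeq) and the 3′ UTR 1420 bp, longer than 94.7% of all annotated 3′ UTRs. The ATP-binding lysine K399 of the Walker A motif is codon AAA at 2030849 to 2030851, and the coding strand from 2030837 to 2030863 is shown to place the helicase motor in the gene.
hrr1+ K399: ccagggactggtAAAagctttgttact

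cid12+ (SPCC663.12) encodes the nucleotidyltransferase of RDRC, of the Cid family of poly(A) polymerases. It is the shortest member by coding length, with a single exon of 1011 bp from 1655669 to 1656679 for 336 residues, yet its mRNA spans 4415 bp, from 1655666 to 1660080 on the plus strand of chromosome 3. The annotated 5′ UTR had 3 bp, and 6 of 4693 annotated 5′ UTRs (0.128%), this one included, were of 3 bp or less. The 3′ UTR had 3401 bp, 3.36 times the coding length and 77% of the mRNA span (rank 24 of 4748). The aspartate D77 of the catalytic site is codon GAT at 1655897 to 1655899, and the coding strand from 1655885 to 1655911 is shown because the codon of a further aspartate follows closely.
cid12+ D77: ttatctataagtGATgtagacgtatct

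dcr1+ (SPCC188.13c) encodes Dicer, with an N-terminal helicase region and a pair of RNase III domains. Its mRNA spans 1504949 to 1510574 on the minus strand of chromosome 3. The single coding exon of 4125 bp, from 1506166 to 1510290, encodes 1374 residues and is longer than that of 97.4% of all coding genes. The 5′ UTR had 284 bp and the 3′ UTR 1217 bp. The RNase III aspartates are D937, codon GAC at 1507480 to 1507482, and D1127, codon GAT at 1506910 to 1506912, with 189 residues between them. The helicase lysine K38, codon AAG at 1510177 to 1510179, lies close to the N terminus. The coding strand around these 3 codons is shown, from 1507494 to 1507468, from 1506924 to 1506898, and from 1510191 to 1510165, because each marks an active site of the enzyme.
dcr1+ D937: gagttttacggaGACtgctttctaaaa
dcr1+ D1127: gagtttttgggtGATgctgtattggat
dcr1+ K38: acgggcgctggtAAGacattacttgct

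Compared with all coding genes, most members had long coding sequences. Their median coding length was 2883 bp against 1137 bp over all genes, and 6 of 7 lay above the median of all genes, with cid12+ below it. The median 5′ UTR of the members was 284 bp (all genes 173 bp) and the median 3′ UTR 473 bp (all genes 262 bp). These medians hide a wide spread, since 5′ UTRs ranged from 3 to 805 bp and 3′ UTRs from 58 to 3401 bp. The GC content of the coding sequence was between 36.2% and 39.9% in the members, with a median of 38.2% against 39.6% over all genes.

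**Figure D1:**
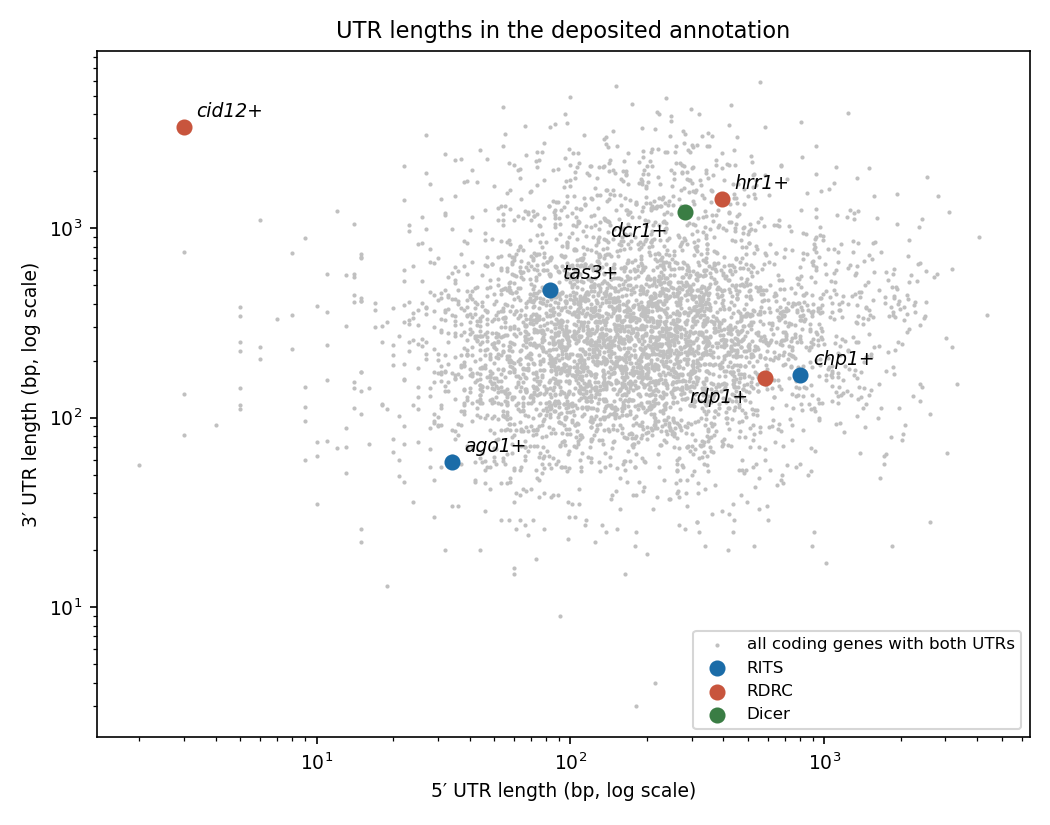
Length of the 5′ UTR (x axis, bp, log scale) against that of the 3′ UTR (y axis, bp, log scale) of each coding gene with both UTRs annotated (gray points) and of the members (colored by complex). cid12+ stands apart at the upper left with 3 and 3401 bp, and ago1+ lies at the lower left with 34 and 58 bp.

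A 3′ UTR over 1000 bp was annotated for 3 of the 7 members, hrr1+, cid12+, and dcr1+, against 9.2% of the 4748 coding genes with a 3′ UTR. None of these was a RITS gene, and the 3 RITS genes ranged from 58 to 473 bp. The long 3′ UTRs coincided with convergent genes. In hrr1+, 93% of the 3′ UTR lay over SPCC1739.04c, a gene on the opposite strand that the file calls a sequence orphan (dms1 in RefSeq). The overlap of 1321 bp held all 825 coding bases of that gene. In cid12+, the 3′ UTR ran across naa50+, which encodes a subunit of an N-terminal acetyltransferase, and across SPCC663.14c, predicted to encode a TRP-like ion channel. Both genes lay whole within the 3′ UTR of cid12+, and together they covered 83.4% of it. At least 1 coding gene wholly inside the 3′ UTR was found for 2.15% of the genes with a 3′ UTR, and 2 or more, as in cid12+, for 7 genes (0.147%). The 3′ UTR was longer than the coding sequence in 12.8% of genes, and of the members in cid12+ alone. RefSeq has the same coding exons and 3′ ends for the members, so the same 3 had a 3′ UTR over 1000 bp there. Of all RefSeq genes with a 3′ UTR, 9.09% had one over 1000 bp.

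The overlap at dcr1+ differed in kind because it reached into the coding sequence. The septin gene spn6+ ran toward dcr1+ from the opposite strand and shared 1903 bp with it. This stretch held the whole 3′ UTR of dcr1+ and its last 686 coding bases, which lay opposite the 3′ UTR of spn6+. In turn, 1135 of the 1143 coding bases of spn6+ lay opposite dcr1+, in the region of its 3′ UTR. Of the residues shown above, neither D1127 nor D937 fell into the shared stretch, which ended at 1506851, while the codon of D1127 started at 1506910. In no member did coding sequence overlap coding sequence of another gene at the 3′ end.

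In all, 3 of 7 members overlapped an opposite-strand coding mRNA at a 3′ end, close to the 37.4% of all coding genes that did so (in RefSeq, the same 3 members and 36.3% of genes). Of the members, 6 had a convergent downstream neighbor, the exception being chp1+, against 55.1% of all coding genes (54.7% in RefSeq, for the same 6 members). With 7 genes this difference in shares is not a result about the members. Of these 6, hrr1+ and dcr1+ overlapped the downstream neighbor. The other 4, cid12+ included, ended close to that neighbor without overlapping it. ago1+ ended 17 bp from mmi1+, which encodes an RNA-binding protein of the YTH family that removes meiotic transcripts. rdp1+ ended 29 bp from ade3+, a gene of purine synthesis. tas3+ ended 42 bp from ucp8+, and cid12+ ended, past the genes inside its 3′ UTR, 54 bp from SPCC663.15c. Over the 2823 genes with a convergent downstream neighbor the median gap was -59 bp, an overlap, and gaps of 0 to 50 bp made up 9.42%.

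**Figure D2:**
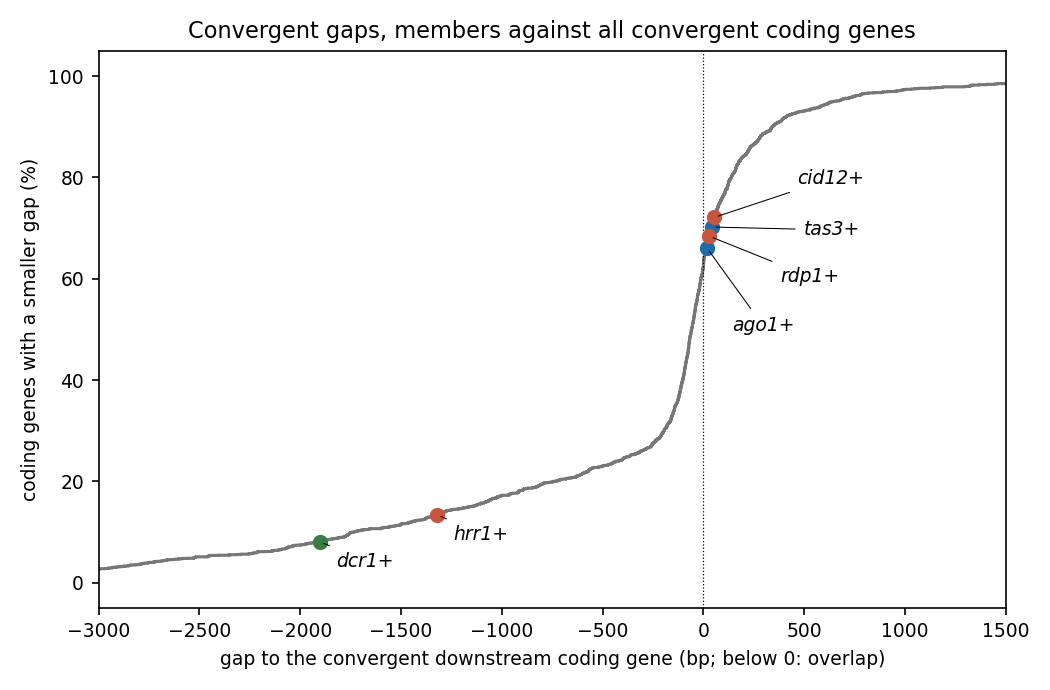
Share of all 2823 convergent coding genes with a smaller gap to their downstream neighbor (y axis, %) against that gap (x axis, bp, values below 0 are overlaps). The points of ago1+, rdp1+, tas3+, and cid12+ lie together between 17 and 54 bp, and those of hrr1+ and dcr1+ lie at -1321 and -1903 bp. The x axis is limited to the range shown.

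The short stretches between the annotated ends are shown because they are all that separates these transcripts from the next gene in the annotation. They are given on the coding strand of the member. The stretch after ago1+ runs from 337071 to 337087 and that after rdp1+ from 1329062 to 1329090. That after chp1+, where SPAC18G6.01c follows on the same strand after 19 bp, runs from 2210809 to 2210791. RefSeq gives the same gaps after ago1+ and rdp1+ but one of 93 bp after chp1+, so that stretch depends on the annotation.
ago1+ to mmi1+: gcccacaacttttactt
rdp1+ to ade3+: acacatatactcgatggttaaagcaattt
chp1+ to SPAC18G6.01c: ctatataataaccgtatgt

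The letters AATAAA, the usual signal for polyadenylation, were searched on the coding strand between the stop codon and the annotated mRNA end. They were found in 43.7% of all 4748 3′ UTRs and within the last 50 bases in 17.1%. Of the members, hrr1+ held 4 copies, the last starting 21 bases before the end, cid12+ held 6, and dcr1+ held 1. ago1+, chp1+, tas3+, and rdp1+ held none. In cid12+ the first copy started at base 41 after the stop codon and the last one 79 bases before the end. A match gives letters in a window and does not show where the transcript ends.

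At their 5′ ends, 5 of 7 members faced a divergent neighbor (55.2% of all coding genes did), while saf1+ and SPCC584.11c lay upstream of cid12+ and dcr1+ on the same strand. The distances to the upstream gene were 34 bp for hrr1+ (mrpl22+, a gene for a mitochondrial ribosomal protein), 83 bp for cid12+, 213 bp for rdp1+, 469 bp for tas3+ and for dcr1+, 970 bp for chp1+, and 1451 bp for ago1+. These gaps depend on the annotated 5′ ends, and RefSeq gives 325 bp for hrr1+, 63 bp for cid12+, 373 bp for rdp1+, 516 bp for tas3+, 486 bp for dcr1+, 1326 bp for chp1+, and 1512 bp for ago1+. In the deposited file, the single SPNCRNA, a noncoding RNA, annotated within 1 kb of a member was SPNCRNA.464, of 122 bp. It ended 478 bp upstream of ago1+ on the same strand.

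No noncoding RNA of the deposited file overlapped a member on the opposite strand (0 of 7), while 21.2% of all coding genes had such an SPNCRNA. This count is a property of the annotation. The file lists 1571 noncoding RNAs on chromosomes 1 to 3, and the RefSeq annotation of the same sequence lists 7133. With RefSeq, all 7 members had an antisense RNA, as did 75.4% of all coding genes. There were 13 such RNAs over the members, and they lay across 83.4% of the coding sequence of ago1+, 67.6% of tas3+, 47.8% of cid12+, 46.1% of hrr1+, 35.2% of dcr1+, 30.2% of rdp1+, and 2.74% of chp1+. The largest was SPNCRNA.2578 of 1658 bp, which covered the 5′ part of rdp1+. SPNCRNA.6800 of 1536 bp lay wholly inside ago1+. RefSeq gives no level for these RNAs, so the covered share says nothing of their abundance.

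**Figure D3:**
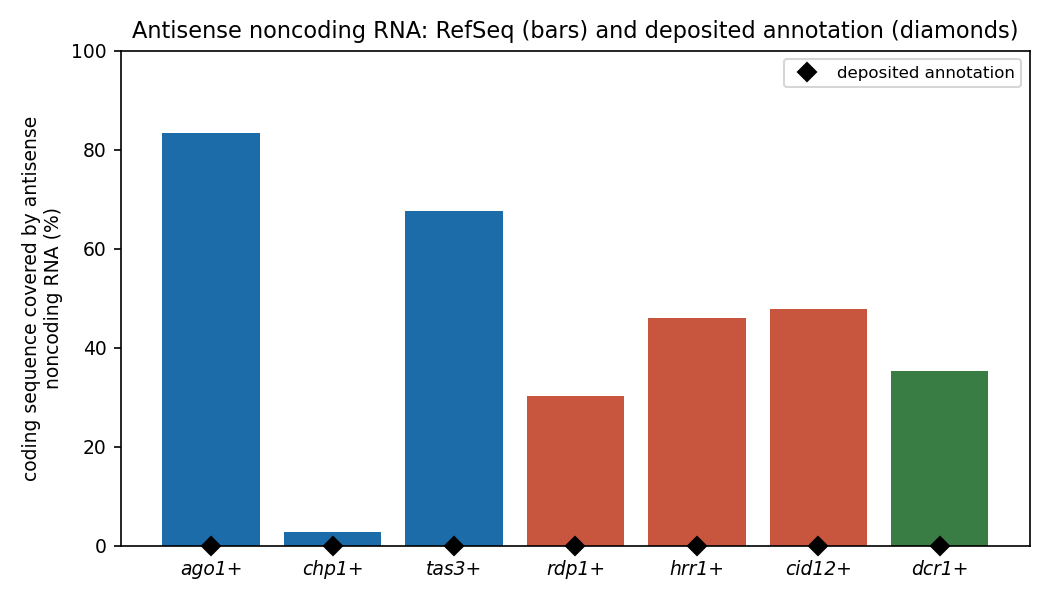
Share of the coding sequence of each member that lies opposite an antisense noncoding RNA (y axis, %) in the RefSeq annotation (bars, colored by complex) and in the deposited annotation (diamonds). All diamonds lie at 0, and the bars reach from 2.74% for chp1+ to 83.4% for ago1+.

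The coding exons of all 7 members were the same in both annotations, and so were their 3′ ends. The 5′ ends differed in all 7. RefSeq moved the start upstream by 24 bp in ago1+ and by 20 bp in cid12+, whose 5′ UTR became 23 bp. It moved the start downstream by 17 bp in dcr1+, 32 bp in tas3+, 199 bp in hrr1+, 319 bp in chp1+, and 350 bp in rdp1+. The 5′ UTR intron of rdp1+ was kept.

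An intron in the coding sequence was annotated in 2 of 7 members, ago1+ and hrr1+, against 46.6% of all coding genes. With 3 coding introns, hrr1+ belonged to the 12.9% of genes with 3 or more. The intron of ago1+ was longer than 98.9% of the 5064 coding introns, whose median was 55 bp, while those of hrr1+ were among the shorter ones (9.34%, 12%, and 29.9% of introns were shorter). The intron of rdp1+ lay in the 5′ UTR, as in 3.26% of all coding genes. The ago1+ intron follows 129 coding bases and falls between codons. Each intron of hrr1+ falls after the first base of a codon.

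The splice sites are shown because they separate the introns of ago1+, rdp1+, and hrr1+. The 5′ ends are given with up to 6 exon bases before them and the first 6 intron bases in capitals. All began with GT and ended with AG, as did 99.4% of coding introns. GTAAGT, found in ago1+ and in introns 1 and 2 of hrr1+, was the commonest start (27.3% of introns). GTATGT in rdp1+ was found in 19.8% and GTAAGA in hrr1+ intron 3 in 6.54%.
ago1+ intron, 5′ end: tatcatGTAAGTtcctagaaat
rdp1+ 5′ UTR intron, 5′ end: GTATGTataagtggat
hrr1+ intron 1, 5′ end: aaagaaGTAAGTaattttaaat
hrr1+ intron 2, 5′ end: ctaggaGTAAGTgagattttat
hrr1+ intron 3, 5′ end: taaatgGTAAGAaaagcaagca
The last 24 bases of each intron follow, with the final AG in capitals and, where present, a match to CTAAC or to its variant CTGAC, letters of the branch site.
ago1+ intron, 3′ end: tcaaattaacgccttttgttgtAG
rdp1+ 5′ UTR intron, 3′ end: ttttcgtatCTAACgaatttatAG
hrr1+ intron 1, 3′ end: caatttcctaCTAACagaccttAG
hrr1+ intron 2, 3′ end: aaggaattattaacatattatcAG
hrr1+ intron 3, 3′ end: ttaattttCTGACtcactctgtAG
Either of these occurred anywhere in 50.6% of all coding introns. They were absent from the intron of ago1+ and from intron 2 of hrr1+ on the strand searched, that of the gene. In the other introns the A before the last letter of the match was followed by 10 to 12 intron bases.

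The proteins differed in how many relatives they have in the same genome. Each was searched with BLASTp against the translated coding sequences of all 5121 genes, with an expect value of up to 0.001. Ago1, Tas3, and Rdp1 matched only themselves. The other 4 proteins had relatives. The share of all proteins that match only themselves was not computed, so these counts describe the members alone.

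Chp1 aligned to a single other protein, Clr4, the H3K9 methyltransferase, over residues 22 to 77 of Chp1, where 24 of 57 aligned columns were identical (42.1%). This is the stretch of the chromodomain in both proteins. In a direct local alignment of this stretch, 20 of 49 pairs were identical with Swi6 (40.8%), 23 of 52 with Chp2 (44.2%), and 24 of 54 with Clr4 (44.4%). Swi6 and Chp2 are the HP1 proteins of fission yeast, and Swi6 is the one missing in these cells.

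Cid12 aligned to 5 other proteins (4 at an expect value of up to 1e-06), all of the Cid family of nucleotidyltransferases. The longest alignment was to Cid14, the poly(A) polymerase of a nuclear RNA surveillance complex, with 88 identical residues in 332 columns (26.5%) over residues 6 to 322. Cid11 (26.4%), Cid16 (25.2%), Cid1 (23.3%), and Cid13 (21.7%) followed in share of identical residues. D77 was an aspartate in all 5 of them, at D298 of Cid14 and D101 of Cid1 for example.

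Hrr1 aligned to 5 other proteins, all described in the file as helicases or related factors. Upf1, the helicase of nonsense-mediated decay, gave the best match, with 85 of 291 columns identical (29.2%) over residues 679 to 953, and a second stretch over residues 372 to 454 (34.8%) that holds the Walker A motif. K399 was a lysine in the 3 proteins aligned there, at K420 of Upf1 and K1158 of Sen1. The Walker A pattern itself is common and was found in 4.84% of all proteins.

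Dcr1 aligned to 15 other proteins, of which 5 remained at an expect value of up to 1e-06. Of the 15, 14 matched between residues 3 and 513, the region of its helicase, and most of them have products described in the file as helicases. The best match was Fml2 (29.9% of 137 columns). K38 was a lysine in the 3 proteins aligned there. The remaining protein, not found at the stricter limit, was Pac1, the other RNase III enzyme of the genome, with 38 of 130 columns identical (29.2%) over residues 925 to 1049 of Dcr1. D937 lay opposite D179 of Pac1. Within Dcr1, the stretches around D937 and D1127 had 15 of 58 aligned pairs identical (25.9%), with the aspartates in the same column. Both aspartates were located by the same short pattern, which 6.21% of all proteins hold, and the stretches were cut around them. Their shared column and part of the identity therefore follow from how they were chosen.

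**Figure D4:**
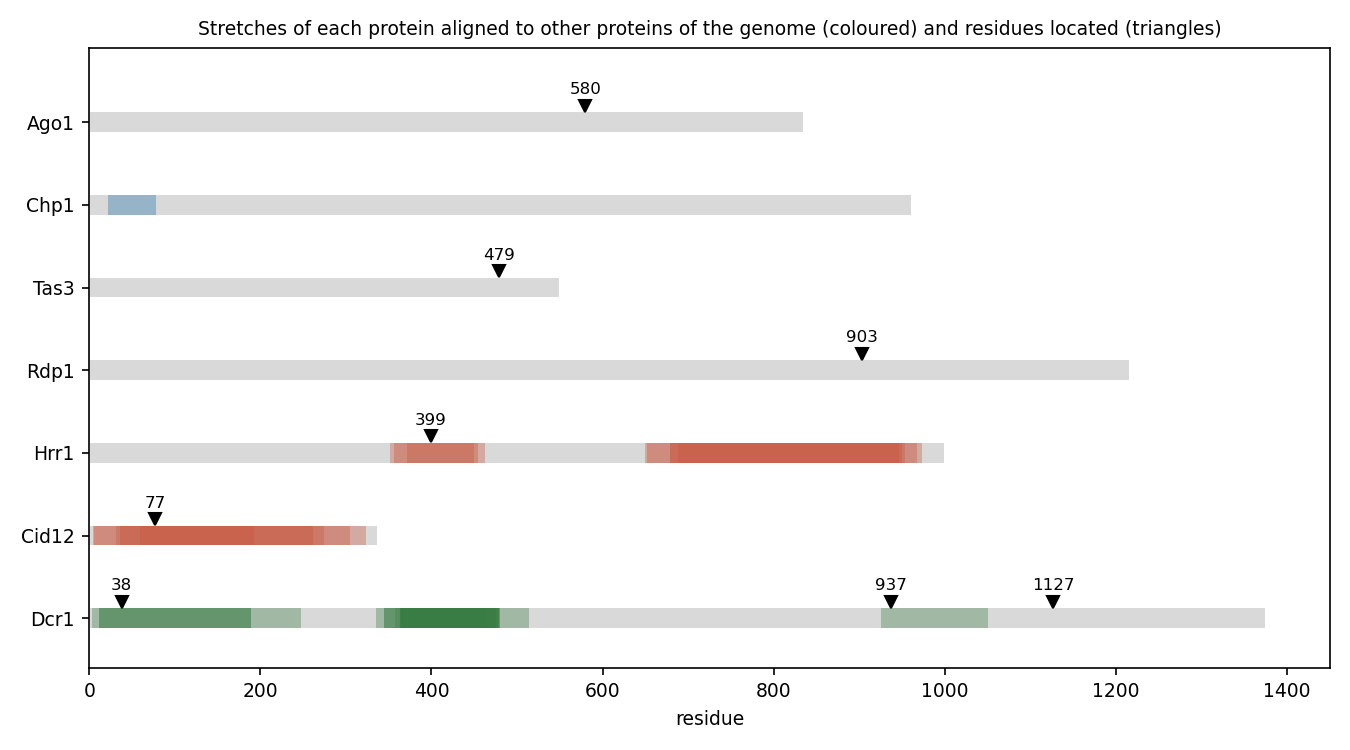
The 7 proteins drawn to scale (x axis, residue number). Colored stretches aligned to at least 1 other protein of the genome, with darker color where more alignments lie over each other, and triangles with numbers mark the residues located in the text. Ago1, Tas3, and Rdp1 have no colored stretch, while in Cid12 it runs from residue 5 to 322.

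The curators' terms in the file describe the members as a group, though they rest on the same literature that defines these genes. All 7 carry the term for small RNA-mediated chromatin silencing, which 12 genes of the genome carry (0.234%), among them pcu4+ and raf2+ of the Clr4 complex and rpb2+ of RNA polymerase II. All 7 are recorded as viable when deleted, as are 70.1% of all genes. Lack of an apparent ortholog in Saccharomyces cerevisiae, which has no RNAi, is recorded for 6 of 7, against 10.9% of all genes. tas3+ is listed instead among the 7.44% of genes identified in S. pombe only. The loss of siRNAs of the outer repeats on deletion is recorded for ago1+, chp1+, tas3+, and dcr1+, which make up 4 of the 5 genes with this record, (0.0976% of all genes), and for no RDRC gene. An absent record does not show that a phenotype was absent. The term RITS complex marks the 3 RITS genes and ers1+ (0.0781% of all genes), and that of the RNA-directed RNA polymerase complex marks the 3 RDRC genes alone (0.0586%). That these complexes associate is recorded for those 6 members and for no other gene (0.117%). ago1+ and dcr1+ are the only genes with the PAZ domain (0.0391%), the module that holds the end of a small RNA.

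The neighbors of the members in the pathway were read in the same way, from a list of 13 genes for partners of RITS and RDRC, the Clr4 complex, and HP1 proteins. Of these, dsh1+ has no name in the deposited file and was found through RefSeq. A convergent downstream neighbor was found for 8 of 13 and an overlap at the 3′ end for 8 of 13, against 55.1% and 37.4% of all coding genes. The largest was that of rik1+, a subunit of the Clr4 complex, with 3703 bp. A 3′ UTR over 1000 bp was found for 2 of 13 (9.2% of all genes with a 3′ UTR), clr4+ (2579 bp) and eri1+ (1382 bp), which encodes a nuclease that degrades siRNAs. Coding introns were found in 6 of 13 (46.6% of all genes), with 10 in ers1+, an RNAi factor that binds RDRC. An antisense SPNCRNA lay over 4 of 13 (21.2% of all genes), arb1+, cid14+, rik1+, and pcu4+. The swi6+ gene had none of these features.

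Of the 7 members, 4 lie on chromosome 3 (ago1+, hrr1+, cid12+, and dcr1+), which holds 17.9% of coding genes, 2 on chromosome 1, and 1 on chromosome 2. None lies in or next to the repeats whose silencing the encoded proteins mediate. The closest was tas3+, 87.5 kb to the left of the repeats of centromere 2. Among all coding genes, 9.39% lay nearer than that to centromere repeats, mating type region, or a chromosome end. dcr1+ lay 368 kb and cid12+ 519 kb from the repeats of centromere 3. ago1+ and hrr1+ were nearest to a chromosome end, at 334 and 419 kb. rdp1+ lay 1325 kb from the left end of chromosome 1, and chp1+ 1539 kb from the repeats of centromere 1. The median over all coding genes was 489 kb. Every 50-base sequence within the mRNA spans of the 7 members occurred once in the reference genome, on both strands and with the mitochondrial sequence included. The share of all coding genes for which this holds was not computed.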

How the data were processed

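Per the labels, H3K9me2 ChIP-seq libraries of swi6Δ cells were sequenced in 2 replicates. The values used here are the first and last base of features that the authors deposited as a GeneDB annotation of 33839 lines. The sources used here do not say how reads were aligned. Scores were empty in every line (0 lines with a score). Genes were found by name, pseudogenes were left out, and introns were read as gaps between exon lines. RefSeq ASM294v3 gave the sequence and a second annotation, in which 5097 of the 5121 coding genes were found. An overlap needed 1 bp on opposite strands and the 3′ end of either gene, and the downstream neighbor was the nearest coding gene reaching past the 3′ end. Centromere spans joined repeat features within 10 kb of each other around the central core. Residues were found by short patterns chosen with the sequences in view. Proteins were compared with BLAST+ 2.17.0 and Biopython 1.88 (local alignment, gap scores -12 and -1), and figures were drawn with matplotlib 3.10.9 in Python 3.11.15. Overlap, gap, and intron steps were tested on simulated data of 500 genes, with 0 wrong. The genes tested there were all on the plus strand and none held a nested gene. The test therefore did not cover nested genes, as at cid12+, or overlaps of minus-strand genes, as at dcr1+. The members, gene lists, and tests were chosen with earlier results of these data known. The named genes are the members, their nearest neighbors and overlapping genes, noncoding RNAs within 1 kb (1000 bp), and genes of the pathway list that met a rule. Others, such as the proteins aligned to a member, the tRNA genes, and the genes sharing a curated term, were named after their values were seen. No amino acid or promoter sequences are shown. A further gene of the pathway is not reported here.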

Additional observations from a re-analysis of the deposited data

How the results depend on the processing

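Of 17 alternatives, 14 left the count of members within 1.5 times its value. Some of these could not have changed it. All 7 members have both UTRs annotated, so limiting the genes to those with both kept every member. A count of 0 antisense RNAs cannot rise with a larger minimum overlap or with coding spans. Sequences of 100 bases cannot repeat where those of 50 do not. RefSeq gives the members the same coding exons and 3′ ends, so their 3′ UTR lengths could not differ. The overlap at 3′ ends was found for 3 of 7 members with a minimum of 50 bp (31.8% of all genes), with RefSeq (36.3%), and among genes with both UTRs (39.6%). With coding spans it was 0 of 7 (0.742% of all genes), since this setting leaves the UTRs out. The antisense noncoding RNA was found for 0 of 7 with a minimum of 50 bp (19.7% of all genes), with coding spans (15.4%), and among genes with both UTRs (21.2%). With RefSeq it was 7 of 7 (75.4% of all genes), with the longer list of noncoding RNAs. Counting UTR introns gave 3 of 7 members with an intron (49.2% of all genes). The convergent neighbor stayed at 6 of 7 among genes with both UTRs (56.5% of these genes) and with RefSeq (54.7%). Chosen after seeing the data, a 3′ UTR limit of 500 bp gave 3 members (22.7% of genes with a 3′ UTR), a limit of 2000 bp gave 1 (2.72%), and RefSeq with 1000 bp gave 3 (9.09%). An expect value of 1e-06 left the 3 proteins without a relative at 3, while the relatives of Dcr1 went from 15 to 5, without Pac1, and those of Cid12 from 5 to 4. Sequences of 36 or 100 bases gave 0 repeated positions, as 50 did. Measuring from an annotated centromere feature was not run, as no such feature was found in the file used here, and H3K9me2 at the members with and without each replicate was not run for lack of values. No paired analysis was possible because the analysed file holds no values of the libraries. The limits are those of the annotation: UTR ends come from few sources, the 5′ ends differ between annotations, and an annotated RNA has no level.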

Other observations

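Computed from the translated coding sequences, the proteins ranged from 38.6 kDa for Cid12 to 158 kDa for Dcr1. The RITS subunits had 94.4 kDa (Ago1), 109 kDa (Chp1), and 63.1 kDa (Tas3), and the larger RDRC subunits 139 kDa (Rdp1) and 115 kDa (Hrr1). Computed isoelectric points were basic for Ago1 (9.18), Rdp1 (8.78), and Tas3 (8.55) and acidic for Cid12 (5.32), Chp1 (5.61), and Hrr1 (6.12), with Dcr1 at 7.46. These are values of the sequence without modifications.

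On the right arm of chromosome 3, dcr1+, cid12+, and hrr1+ follow each other with 145 and 369 kb between them. ago1+ lies on the left arm of the same chromosome. On chromosome 1, rdp1+ and chp1+ are 882 kb apart.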
